A study of Mus musculus with 15 samples.

Results

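The genes described here are 10 regulators of cell death of the BCL2 family: Bcl2, Bcl2l1, Mcl1, Bcl2l11, Bmf, Bid, Bad, Bak1, Bax and Pmaip1. They were chosen by name, and every probe set that the platform annotation gives to exactly one of these symbols was taken, which yielded 31 of the 45037 probe sets tested. These stood for 9 of the 18193 genes that had a probe set under a single name, and Bax was not analysed here. The samples came from leukemic spleens of SCID/Beige mice, which lack mature T and B cells. These mice had been transplanted by tail vein with an acute myeloid leukemia that carries NRASG12V and the Mll-AF9 fusion. Doxycycline shuts off the NRASG12V transgene in this model, while Mll-AF9 is present in every sample. The RAS-OFF groups were 48, 60, 72, 84 and 96 h of doxycycline, given by injection and then in the drinking water, with 2 arrays each. The RAS-ON group was vehicle at 0 h, with 5 arrays. All animals were treated once the leukemia was full blown, 20 days after transplantation with a white cell count over 100000 per microlitre. No array of doxycycline without the transgene and no vehicle array at a later time was analysed here, so NRAS withdrawal, doxycycline and time cannot be told apart. The labels do not say whether replicates came from separate animals or how many primary leukemias were used, so the p-values cover only how far these arrays differ within a group, part of which may be technical.

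Proteins of the BCL2 family decide whether the outer mitochondrial membrane stays intact. Pro-survival members such as BCL2, BCL-XL (from Bcl2l1) and MCL1 bind and hold the other members. BH3-only proteins such as BIM (from Bcl2l11), BMF, BID, BAD and NOXA (from Pmaip1) sense stress and occupy the pro-survival proteins or activate the effectors, and the effectors BAK and BAX then form pores that release cytochrome c. RAS signalling through ERK is known to mark BIM protein for destruction and to phosphorylate BAD and MCL1, so much of the known RAS control of this family acts on protein, which RNA arrays do not measure.

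Per array, the median intensity was 153 to 157 in RAS-OFF samples and 150 to 155 in RAS-ON samples, and arrays of a group correlated at 0.987 to 0.997. One array stood apart in RNA quality: the Gapdh 3' minus 5' log2 difference was 1.22 in RAS-OFF 96 h replicate 1, against 0.0989 to 0.355 in the other 14. This array and the first replicates of 48 and 84 h had been set apart in an earlier examination of these data, and the family's slopes, on which they bear most, are given with and without them. Cell type markers moved too. The summed intensity of 6 promyelocyte genes, such as Mpo and Elane, was 12366 to 18482 in RAS-OFF samples and 44192 to 60077 in RAS-ON samples, with 6 of 6 lower. The summed intensity of 10 erythroid genes was 75333 to 96292 in RAS-OFF samples and 29414 to 35485 in RAS-ON samples, with 10 of 10 higher. For 12 red pulp macrophage genes it was 18564 to 24959 in RAS-OFF samples and 13054 to 17825 in RAS-ON samples, with 9 higher and 2 lower. For 5 monocyte genes it was 7768 to 11807 in RAS-OFF samples and 18793 to 22462 in RAS-ON samples, with 4 lower. Megakaryocyte genes were higher in 7 of 7 and late neutrophil genes in 5 of 7. The sum of 7 stroma and endothelium genes was 12301 to 17899 in RAS-OFF samples and 10915 to 11635 in RAS-ON samples, with 5 higher and 1 lower. Of 5 T cell genes 2 were higher and 0 lower, and of 4 B cell genes 1 was higher and 3 lower. Of 5 natural killer genes 3 were higher and 1 lower. These arrays list no marker at 0. In bulk samples, fewer cells of a type and less RNA per cell cannot be told apart, and the part of these markers in the results below was not tested. Of the genes of RAS output, Etv5 changed by -2.04 ± 0.10 on the log2 scale and Dusp6 by -1.11 ± 0.09 (SE, adjusted p = 3.15e-09 and 4.96e-07), while Spry2 did not pass on its brightest probe set (0.02, adjusted p = 0.881) and was lower on its other one. The targeted gene Nras had 3 probe sets, and all 3 were called lower. Its brightest was 10.34 to 10.96 in RAS-OFF samples and 10.72 to 11.19 in RAS-ON samples, a change of -0.31 ± 0.09 (adjusted p = 0.0113). Against RAS-ON replicates 1 to 3 alone the brightest did not pass (-0.20, adjusted p = 0.109). Whether the Nras probe sets read the transgene is not given in the sources used here.

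Across the family, RAS-OFF samples had less Bcl2, Bid, Bad, Pmaip1 and Bak1 RNA and more Bcl2l1 and Bcl2l11 RNA, read on the brightest probe set of each gene. The falls were 2.98-fold for Bcl2, 2.35-fold for Bak1, 2.12-fold for Bid, 1.75-fold for Pmaip1 and 1.25-fold for Bad. The rises were 1.5-fold for Bcl2l11 and 1.42-fold for Bcl2l1. Mcl1 and Bmf did not pass the test over all times together, with changes of -0.05 and 0.17 on the log2 scale. Thus pro-survival, BH3-only and effector genes each had a member that fell, and pro-survival and BH3-only genes each had one that rose.

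The test was limma on log2 intensities, with the mean of the 5 RAS-OFF times set against RAS-ON and p-values adjusted over all 45037 probe sets. An adjusted p below 0.05 was called. Among all probe sets 41.5% were called, 19.1% higher and 22.4% lower, so a call is common on these arrays. Of the 31 probe sets of the family, 21 were called (67.7%), 9 higher and 12 lower. By gene, 2 of the 9 were higher and 5 lower, against 19.3% and 27.4% of the brightest probe sets of all genes (46.8% in all). The median change of the 31 was -0.10, against -0.02 over all probe sets. In 10 of the 31 all RAS-OFF arrays lay below all RAS-ON arrays and in 6 all lay above, against 8.68% and 7.33% of all probe sets (16.0% in all). The members were chosen with earlier results of these data known, and the 31 probe sets repeat 9 genes. These shares are therefore a description and not a test of the family.

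**Figure D1:**
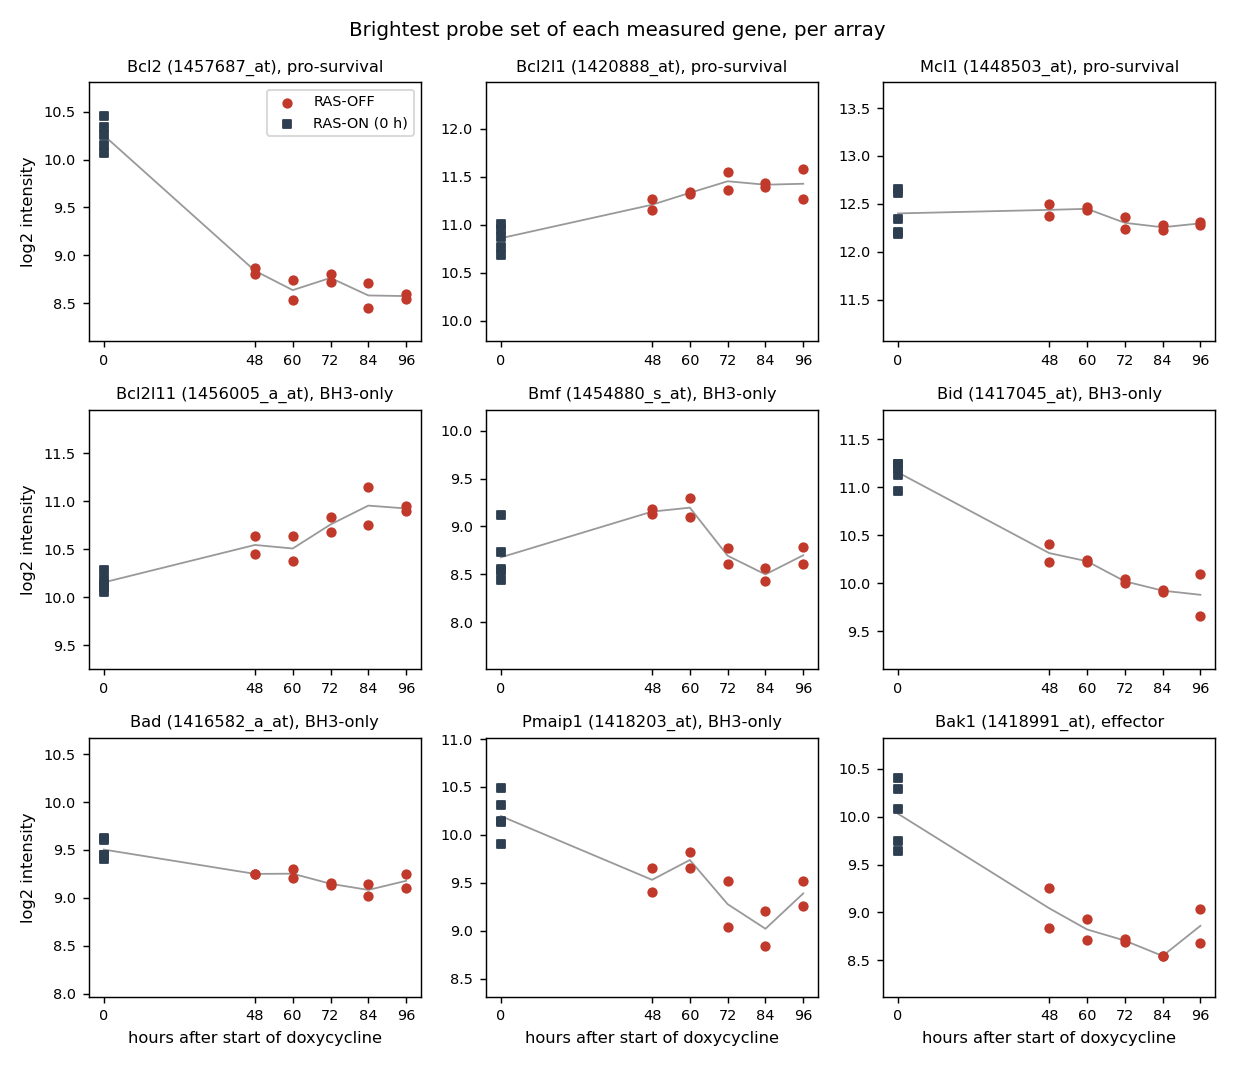
Log2 intensity of the brightest probe set of each of 9 genes (y axis) against hours of doxycycline (x axis, drawn to scale, 0 h is RAS-ON with vehicle). Points are arrays, 5 at 0 h and 2 at each later time, and lines join group means. The RAS-OFF points of Bcl2, Bid, Bad, Pmaip1 and Bak1 lie below every 0 h point, those of Bcl2l1 and Bcl2l11 lie above, and those of Mcl1 and Bmf overlap with the 0 h points.

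**Figure D2:**
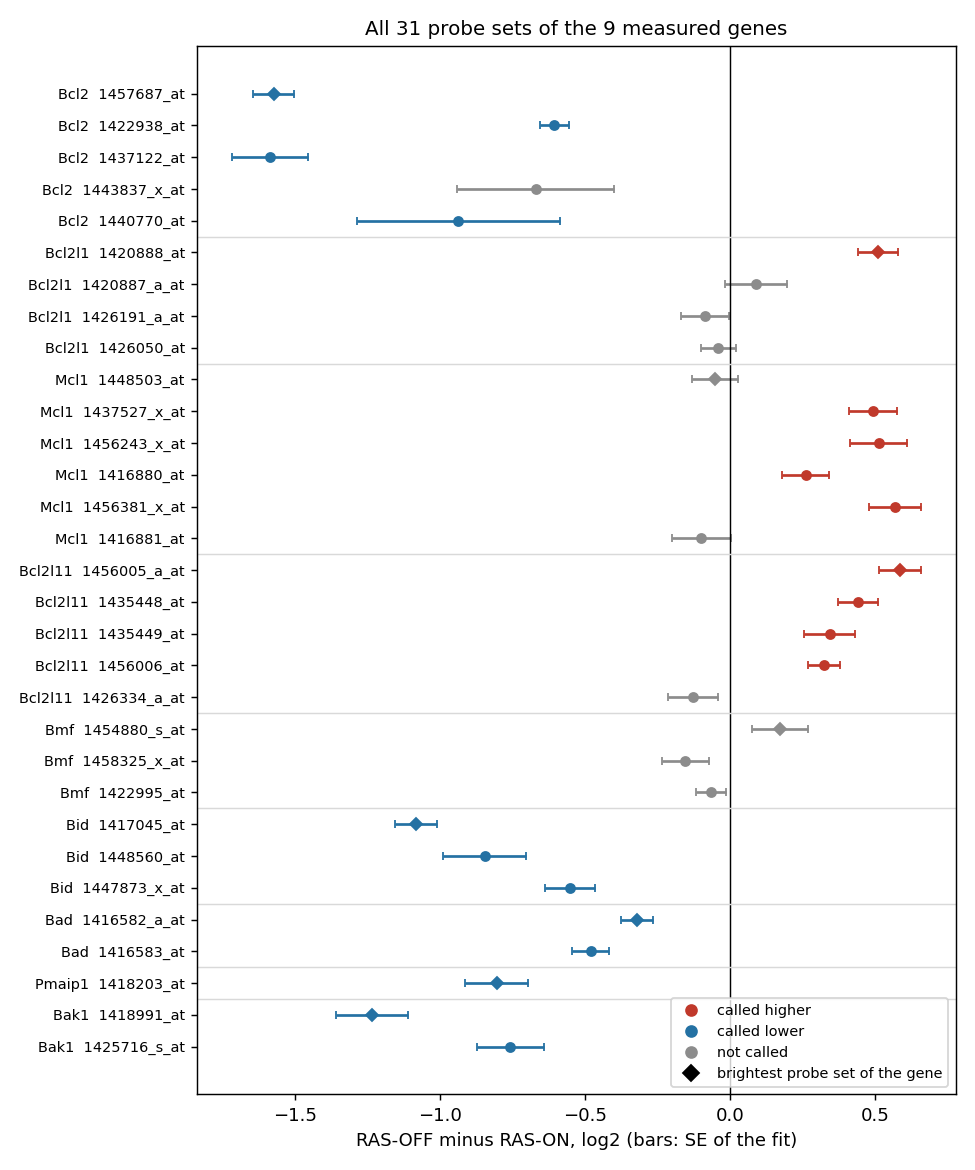
Change in log2 intensity, RAS-OFF minus RAS-ON (x axis), for each of the 31 probe sets (y axis, named by gene and probe set, the brightest of each gene marked). Bars are standard errors of the fit, and colour shows whether limma's adjusted p was below 0.05. Probe sets of Bid, Bad and Bak1 all lie left of 0, while those of Mcl1 lie on both sides.

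Bcl2, the founding pro-survival member, had the largest fall of the 9 genes. On its brightest probe set, 1457687_at, log2 intensity was 8.81 and 8.87 (48 h), 8.74 and 8.54 (60 h), 8.81 and 8.72 (72 h), 8.71 and 8.46 (84 h) and 8.55 and 8.60 (96 h). In RAS-ON samples it was 10.25, 10.34, 10.46, 10.07 and 10.15. The groups did not overlap, and the change was -1.41 at 48 h and -1.68 at 96 h. Means were 8.68 ± 0.14 (SD, n = 10) in RAS-OFF samples and 10.25 ± 0.15 (SD, n = 5) in RAS-ON samples, a change of -1.57 ± 0.07 (SE, adjusted p = 2.14e-09). Between 48 and 96 h the slope was -0.06 ± 0.03 per 12 h (adjusted p = 0.227), and the arrays of each doxycycline time overlapped with those of the next time in order of level.

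The other 4 Bcl2 probe sets gave the same sign but not the same certainty. Probe set 1437122_at averaged 7.0 ± 0.18 in RAS-OFF samples and 8.59 ± 0.35 in RAS-ON samples, a change of -1.59 (adjusted p = 4.91e-07), and 1422938_at changed by -0.61 (adjusted p = 3.84e-07). Both had no overlap between the groups. Probe set 1440770_at was 6.19 to 7.36 in RAS-OFF samples, with a median of 6.61, and 6.89, 7.99, 9.32, 6.69 and 6.92 in RAS-ON replicates 1 to 5. It was called lower (-0.94, adjusted p = 0.0459), a call that was lost under 14 of 24 alternative settings. The high values were those of RAS-ON replicates 2 and 3, and against RAS-ON replicates 4 and 5 alone the change was -0.18 (adjusted p = 0.464). Probe set 1443837_x_at, whose suffix marks probes that may bind other transcripts, was highest in the same 2 arrays and was not called (-0.67, adjusted p = 0.063). Against RAS-ON replicates 1 to 3 alone it was -1.16 (adjusted p = 0.00196), against replicates 4 and 5 alone 0.06 (adjusted p = 0.663). RAS-ON replicates thus differed among themselves on some Bcl2 probe sets by more than they did on 1457687_at.

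The 300 bases around the start of Bcl2 and of Bcl2l11, the pro-survival and the BH3-only gene that moved in opposite directions, are shown to set the regulatory sequence beside the levels. Both are from RefSeq in build GRCm38.p6, 250 bases before to 50 after the start, 5' to 3' along the gene: Bcl2 at chr1:106714241-106714540 on the minus strand, and the first of 2 Bcl2l11 starts at chr2:128125788-128126087 on the plus strand. Capitals mark matches to the letters GTAAACA (forkhead, the family of FOXO factors) and CCGGAAG (ETS core, the family of ETV5), each searched on both strands, so that CTTCCGG is the ETS core on the other strand. No matches overlapped.
Bcl2: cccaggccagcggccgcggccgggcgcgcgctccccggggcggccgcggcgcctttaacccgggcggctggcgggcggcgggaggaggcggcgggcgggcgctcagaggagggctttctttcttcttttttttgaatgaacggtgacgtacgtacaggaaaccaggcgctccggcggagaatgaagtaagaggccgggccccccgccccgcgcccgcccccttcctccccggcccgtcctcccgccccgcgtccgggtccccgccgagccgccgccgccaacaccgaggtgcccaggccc
Bcl2l11: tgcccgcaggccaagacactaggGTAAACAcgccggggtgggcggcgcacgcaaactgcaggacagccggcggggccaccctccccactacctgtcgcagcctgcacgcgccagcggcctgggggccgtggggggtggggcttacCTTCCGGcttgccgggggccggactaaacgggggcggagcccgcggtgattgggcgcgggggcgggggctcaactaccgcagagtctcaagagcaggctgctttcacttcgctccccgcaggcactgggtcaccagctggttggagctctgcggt
The Bcl2l11 window held GTAAACA beginning 227 bases before the start and the ETS core beginning 105 bases before it. The Bcl2 window held neither, nor the AP-1 letters TGACTCA. The window of the second Bcl2l11 start, not shown here, also held none of these letters. Over 32851 mouse promoter windows of the same length, 3.65% held the forkhead letters, 8.86% the ETS core and 5.2% the AP-1 letters. Of 14 windows of 8 family genes, 1 held the forkhead letters, 3 the ETS core and 0 the AP-1 letters. The ETS core was in 1 window each of Bcl2l1, Mcl1 and Bcl2l11. Whether these letters bear on the direction of a gene was not tested. A match describes the letters and is not a binding site, and these arrays measured no binding.

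Bcl2l1, which encodes the pro-survival protein BCL-XL, rose where Bcl2 fell. Probe set 1420888_at was 11.27 and 11.15 (48 h), 11.32 and 11.35 (60 h), 11.36 and 11.55 (72 h), 11.44 and 11.40 (84 h) and 11.58 and 11.27 (96 h). RAS-ON samples had 11.01, 10.77, 10.69, 10.96 and 10.87. All 10 RAS-OFF arrays lay above all RAS-ON arrays. The means were 11.37 ± 0.13 in RAS-OFF samples (SD, n = 10) and 10.86 ± 0.13 in RAS-ON samples (SD, n = 5), a change of 0.51 ± 0.07 (SE, adjusted p = 4.6e-05). In time order the change was 0.35 (48 h, adjusted p = 0.0324), 0.47 (60 h), 0.59 (72 h), 0.56 (84 h) and 0.57 (96 h), with a slope of 0.05 per 12 h between 48 and 96 h (adjusted p = 0.27). The 48 h call was lost under 7 of 25 alternatives, among them the removal of either 48 h array. Over all times together the other 3 Bcl2l1 probe sets changed by 0.09, -0.09 and -0.04 and none was called. Among them 2 were dim, at or below percentile 35.3 of their arrays. Of these dim probe sets, 1426191_a_at was called lower at 96 h (-0.36, adjusted p = 0.0432), where 1420888_at was higher. With the 4 probe sets averaged, the gene changed by 0.12 (adjusted p = 0.136), so the rise of Bcl2l1 rests on 1420888_at. BCL-XL is needed by maturing red cells, and the erythroid genes, higher in 10 of 10, moved with Bcl2l1. Their part in the rise was not tested.

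Mcl1, a short-lived pro-survival protein on which myeloid cells depend, gave a different answer on different probe sets. The brightest, 1448503_at, was 12.23 to 12.50 in RAS-OFF samples and 12.35, 12.20, 12.18, 12.65 and 12.62 in RAS-ON replicates 1 to 5. The RAS-OFF values fell between the low and the high RAS-ON replicates, and the change was -0.05 ± 0.08 (SE, adjusted p = 0.635). Against RAS-ON replicates 4 and 5 alone it was -0.29 (adjusted p = 0.00481). The 3 Mcl1 probe sets 1437527_x_at, 1456243_x_at and 1456381_x_at were higher by 0.49, 0.51 and 0.57 (adjusted p = 3.37e-04, 9.72e-04 and 1.89e-04), and in each all 10 RAS-OFF arrays lay above all 5 RAS-ON arrays. On 1456381_x_at the RAS-OFF arrays were 11.68 to 12.13 and the RAS-ON arrays 11.16 to 11.55. The annotation used here gives these 3 no transcript accession, and their suffix marks probes that may bind more than one transcript.

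The last 2 Mcl1 probe sets differed from each other. Probe set 1416880_at was higher by 0.26 ± 0.08 (adjusted p = 0.0203), and the call was lost without RAS-ON replicate 1 (adjusted p = 0.0673) or replicate 2 (adjusted p = 0.0628). Probe set 1416881_at did not pass the test against RAS-ON over all times together (-0.10, adjusted p = 0.467). At 96 h alone it was called lower (-0.47, adjusted p = 0.0334). The probe sets 1437527_x_at, 1456243_x_at and 1456381_x_at were called higher at that time (0.51, 0.55 and 0.61). Over doxycycline time 1416881_at fell by 0.15 ± 0.04 per 12 h (adjusted p = 0.0322). Its values were 10.96 and 10.85 (48 h), 11.07 and 10.91 (60 h), 10.66 and 10.68 (72 h), 10.56 and 10.64 (84 h) and 10.1 and 10.54 (96 h), and the lowest was the 96 h array with the high Gapdh difference. The slope was -0.11 without that array (adjusted p = 0.214) and -0.10 without the 3 arrays set apart (0.664). Its call was also lost, at slopes of -0.14 to -0.17, without 48 h replicate 1 (0.182) or 2 (0.0623), 60 h replicate 1 (0.0693), or 84 h replicate 1 (0.0646) or 2 (0.0536). With all 6 probe sets averaged, Mcl1 was higher by 0.28 (adjusted p = 0.00614), the opposite sign to the brightest set. A single direction for Mcl1 RNA could not be read from these arrays.

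**Figure D3:**
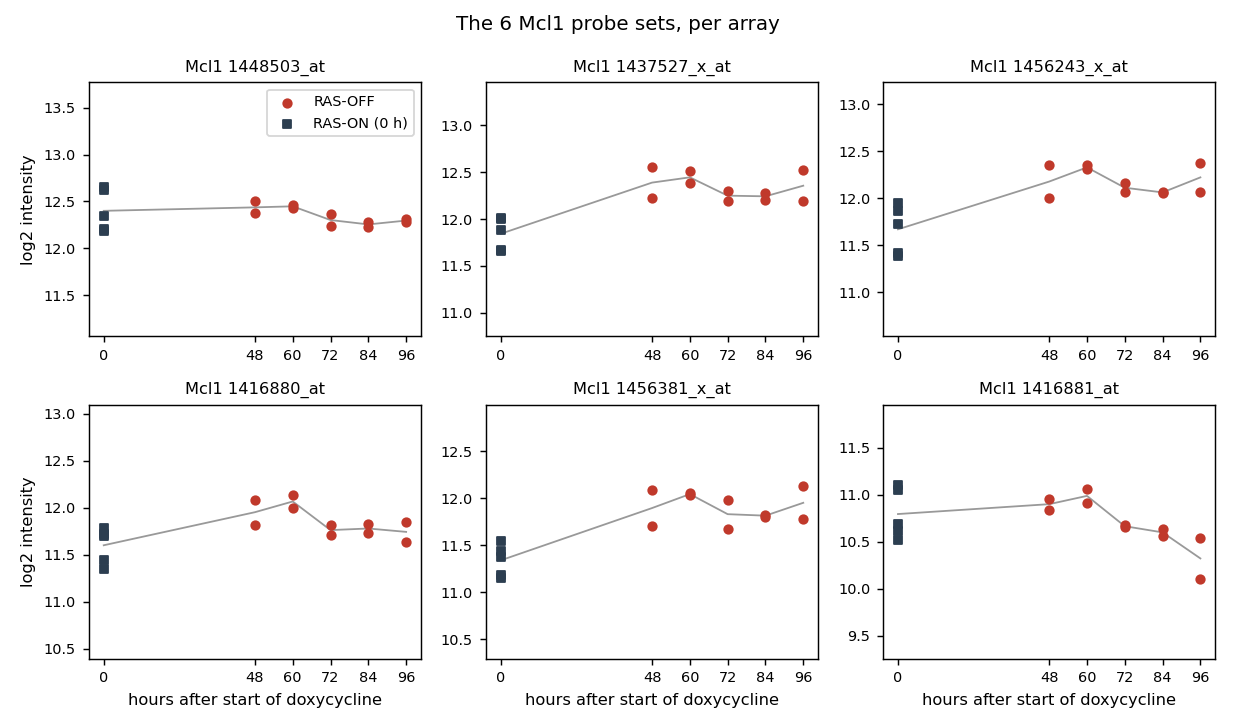
Log2 intensity of each of the 6 Mcl1 probe sets (one panel each, y axis) against hours of doxycycline (x axis, 0 h is RAS-ON with vehicle). Points are arrays and lines join group means. The 3 probe sets ending in _x_at separate the groups, with RAS-OFF above, and 1448503_at and 1416881_at do not.

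Bcl2l11, which encodes BIM, a BH3-only protein that binds every pro-survival member, was higher at every doxycycline time on its brightest probe set. Probe set 1456005_a_at was 10.45 and 10.64 (48 h), 10.63 and 10.38 (60 h), 10.68 and 10.83 (72 h), 10.76 and 11.15 (84 h) and 10.90 and 10.95 (96 h). RAS-ON samples had 10.11, 10.05, 10.14, 10.29 and 10.19. All RAS-OFF arrays lay above all RAS-ON arrays, with means of 10.74 ± 0.23 in RAS-OFF samples (SD, n = 10) and 10.15 ± 0.09 in RAS-ON samples (SD, n = 5) and a change of 0.58 ± 0.07 (SE, adjusted p = 2.41e-05). By time it was 0.39, 0.35, 0.60, 0.80 and 0.77 at 48, 60, 72, 84 and 96 h, each called, with adjusted p from 0.0433 at 60 h to 1.13e-04 at 84 h. The 60 h call was lost under 13 of 25 alternatives and the 48 h call under 3, the removal of either 48 h array among them. Over the doxycycline times the slope was 0.12 ± 0.03 per 12 h (adjusted p = 0.0206). The level did not rise at each step, with means of 10.55, 10.51, 10.76, 10.96 and 10.93 in time order. Without the 3 arrays set apart the slope was as large, 0.13, but was not called (adjusted p = 0.16). The same held, at slopes of 0.10 to 0.13, without 48 h replicate 1 (adjusted p = 0.164), 60 h replicate 2 (0.0501), 96 h replicate 1 (0.0696) or 96 h replicate 2 (0.0661).

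Another 3 Bcl2l11 probe sets were higher as well. Probe set 1435448_at changed by 0.44 (adjusted p = 1.70e-04) with a slope of 0.11 per 12 h (adjusted p = 0.0284), 1456006_at by 0.32 (adjusted p = 3.60e-04) and 1435449_at by 0.34 (adjusted p = 0.00637). The slope of 1435448_at was 0.13 without the 3 arrays set apart (adjusted p = 0.183), and with single arrays left out it was 0.09 to 0.12 and lost its call in 6 cases, at adjusted p of 0.0625 to 0.116. Both 60 h arrays of 1435448_at, at 9.64 and 9.54, lay below its highest RAS-ON array, at 9.68, and 1435449_at overlapped with RAS-ON in 1 array of 60 h, at 8.46. At 60 h none of these 3 was called (0.13, 0.19 and 0.10, adjusted p = 0.443, 0.136 and 0.681), and at 48 h 1435448_at was called (0.34, adjusted p = 0.0402) and the other two were not. Against RAS-ON replicates 4 and 5 alone 1435449_at lost its call (adjusted p = 0.054). The fifth, 1426334_a_at, was dim, at percentile 24.3 to 34.9 of its arrays, and was not called (-0.13, adjusted p = 0.255). Over all times together Bcl2l11 thus rose on 4 of its 5 probe sets.

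Bmf, a BH3-only protein known from cells that lose their attachment, was the one gene called at early doxycycline times and not later. Probe set 1454880_s_at was 9.13 and 9.18 (48 h), 9.29 and 9.10 (60 h), 8.78 and 8.61 (72 h), 8.56 and 8.44 (84 h) and 8.79 and 8.61 (96 h), against 8.74, 8.55, 8.53, 9.12 and 8.45 in RAS-ON replicates 1 to 5. The 4 arrays of 48 and 60 h were above all later arrays, and all but 1 of them were above every RAS-ON array. RAS-ON replicate 4, at 9.12, was the exception. The change was 0.48 ± 0.15 at 48 h (adjusted p = 0.0381) and 0.52 ± 0.15 at 60 h (adjusted p = 0.0265), and 0.02, -0.18 and 0.02 at 72, 84 and 96 h, none of these called. Over the doxycycline times the level fell by 0.16 ± 0.04 per 12 h (SE, adjusted p = 0.0201).

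The Bmf calls, though not the size of the slope, changed with single arrays. The 48 h call was lost under 9 of 25 alternatives and the 60 h call under 6, with the removal of either array of the time in both. The slope was -0.14 to -0.18 but not called without 48 h replicate 1 (adjusted p = 0.0944), 48 h replicate 2 (0.0649), 96 h replicate 1 (0.0507) or 96 h replicate 2 (0.0808). It was -0.19 without the 3 arrays set apart (adjusted p = 0.217). Over all times together Bmf did not pass the test (0.17 ± 0.10, adjusted p = 0.176), and without RAS-ON replicate 4 it was called higher (0.28, adjusted p = 0.00541). The other 2 Bmf probe sets were at or below percentile 35.1 of their arrays and were not called.

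Bid, a BH3-only protein that caspase-8 cleaves to carry death receptor signals to mitochondria, was lower at every doxycycline time on its brightest probe set. Probe set 1417045_at was 10.41 and 10.22 (48 h), 10.22 and 10.24 (60 h), 9.999 and 10.04 (72 h), 9.93 and 9.91 (84 h) and 9.66 and 10.10 (96 h). RAS-ON samples had 11.13, 11.24, 11.25, 10.96 and 11.20. All RAS-OFF arrays lay below all RAS-ON arrays, with means of 10.07 ± 0.21 in RAS-OFF samples (SD, n = 10) and 11.16 ± 0.12 in RAS-ON samples (SD, n = 5) and a change of -1.08 ± 0.07 (SE, adjusted p = 7.22e-08). By time the change was -0.84, -0.93, -1.14, -1.23 and -1.28 at 48, 60, 72, 84 and 96 h, and the slope was -0.12 ± 0.03 per 12 h (adjusted p = 0.0227). The lowest array was 96 h replicate 1, the one with the high Gapdh difference, and without it the slope was -0.07 (adjusted p = 0.163). Without 48 h replicate 1 it was -0.10 (adjusted p = 0.177), and without the 3 arrays set apart -0.06 (adjusted p = 0.646). Over all times together the other Bid probe sets, 1448560_at and 1447873_x_at, were lower by 0.85 and 0.55 (adjusted p = 3.57e-04 and 1.92e-04), so 3 of 3 fell. Neither of these other probe sets was called at 48 h (-0.54 and -0.35, adjusted p = 0.107 and 0.085). At 60 h 1448560_at was not called (-0.64, adjusted p = 0.0643).

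Bad and Pmaip1, the remaining BH3-only genes, were lower too. Bad encodes a protein that survival kinases hold inactive by phosphorylation, and its probe set 1416582_a_at was 9.02 to 9.30 with a median of 9.18 in RAS-OFF samples and 9.62, 9.61, 9.40, 9.45 and 9.44 in RAS-ON samples. The groups did not overlap, and the change was -0.32 ± 0.05 (SE, adjusted p = 3.18e-04). Its second probe set, 1416583_at, changed by -0.48 ± 0.06 (adjusted p = 4.08e-05). Bad was the smallest of the called changes among the 9 genes.

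Pmaip1 encodes NOXA, which binds mainly MCL1 and promotes its breakdown. Probe set 1418203_at was 9.41 and 9.65 (48 h), 9.82 and 9.65 (60 h), 9.52 and 9.04 (72 h), 9.21 and 8.84 (84 h) and 9.52 and 9.25 (96 h), against 10.14, 9.90, 10.15, 10.49 and 10.31 in RAS-ON samples. All RAS-OFF arrays were below all RAS-ON arrays, though the highest of them, 9.82 at 60 h, came close to the lowest RAS-ON array, 9.90. The means were 9.39 ± 0.31 in RAS-OFF samples (SD, n = 10) and 10.20 ± 0.22 in RAS-ON samples (SD, n = 5), a change of -0.81 ± 0.11 (SE, adjusted p = 4.56e-05). The change at 60 h alone was -0.46 (adjusted p = 0.074), at 84 h -1.18 (adjusted p = 1.19e-04). The 48 h call (-0.67, adjusted p = 0.0125) was lost without 48 h replicate 1.

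Bak1, the pore-forming effector BAK, fell 2.35-fold. Probe set 1418991_at was 9.25 and 8.84 (48 h), 8.71 and 8.93 (60 h), 8.69 and 8.73 (72 h), 8.55 and 8.54 (84 h) and 9.04 and 8.69 (96 h). RAS-ON samples had 10.40, 10.28, 10.08, 9.64 and 9.75. The groups did not overlap, and within RAS-ON replicates 4 and 5 were the lowest. Means were 8.80 ± 0.22 (SD, n = 10) in RAS-OFF samples and 10.03 ± 0.33 (SD, n = 5) in RAS-ON samples, a change of -1.23 ± 0.12 (SE, adjusted p = 3.06e-06). The second probe set, 1425716_s_at, was lower by 0.76 (adjusted p = 1.49e-04), though it was dim and 48 h replicate 1, at 6.47, lay inside the RAS-ON range of 6.32 to 6.54. At 48 h this second probe set was not called (-0.38, adjusted p = 0.157). The slope of Bak1 between 48 and 96 h was -0.06 per 12 h (adjusted p = 0.47). Promyelocyte and monocyte genes fell with the 5 lower genes of the family, and their part in these falls was not tested.

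By single times, each set against the same RAS-ON arrays, the 9 genes held 3 called higher and 5 called lower after 48 h, where 10.1% of all probe sets were higher and 8.54% lower (18.6% in all). After 60 h they held 3 higher and 3 lower, against 8.54% and 9.13% of all probe sets (17.7%). After 72 h they held 2 higher and 5 lower, against 11.6% and 12.6% (24.2%). The counts were again 2 and 5 after 84 h, against 13.4% and 15.8% (29.3%), and after 96 h, against 15.6% and 16.6% (32.2%). These shares are over all probe sets, dim ones included, whereas the family was counted by the brightest probe set of each gene. With only the brightest probe set of each gene tested, 4987, 4686, 5779, 6700 and 6847 of 18193 genes were called at the 5 times in order. On brightest probe sets, with p adjusted over all probe sets, Bcl2, Bid and Bak1 were lower and Bcl2l1 and Bcl2l11 higher at each of the 5 times. Bmf was higher at 48 and 60 h, and at 60 h Bad (-0.25, adjusted p = 0.0514) and Pmaip1 did not pass. Other probe sets of these genes were not all called at each time, and Bcl2l1 on 1426191_a_at was called lower at 96 h. With 1 array of 48 or 60 h left out, the count of genes called higher at that time ranged down to 0, and Bad at 48 h (-0.25, adjusted p = 0.0479) lost its call under 15 of 25 alternatives. Over the doxycycline times, 10.3% of all probe sets had a called slope (3.64% up, 6.65% down), and by gene 2501 of 18193 did. Of the 9 family genes 3 had a called slope: Bcl2l11 rose and Bid and Bmf fell. None of these 3 slopes was called without the 3 arrays set apart, where Bcl2l11 and Bmf kept their size and that of Bid was smaller. For Bcl2, Bcl2l1, Bad, Pmaip1 and Bak1 no slope was called. A difference between the genes in slope was not tested.

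The genes most like each member were found by Pearson's r over the 15 arrays among 18192 other genes. Because RAS-OFF and RAS-ON arrays form separate groups, r is set in large part by that difference and is given as a description. Bcl2 was nearest to Etv5 (r = 0.993), which encodes an ETS transcription factor, and to Trem2 (r = 0.992). Bcl2l1 was nearest to Mkrn1 (r = 0.966) and Gstt1 (r = 0.961), and Bcl2l11 to Fbxo5 (r = 0.966), an inhibitor of the anaphase-promoting complex, and Oosp2 (r = 0.964). Bid was nearest to Snx2 (r = 0.990) and Ufsp2 (r = 0.987). Bad and Bak1 shared Adap1 among their nearest genes (r = 0.970 and 0.983), beside Sem1 for Bad (r = 0.980) and Mapkapk2 for Bak1 (r = 0.979). Pmaip1 was nearest to Tmem109 (r = 0.968) and Ly86 (r = 0.965). The genes that did not pass over all times had looser neighbours: Vhl (r = 0.919) and Ndufa6 (r = 0.914) for Mcl1, and Upb1 (r = 0.864) and Cbr3 (r = 0.849) for Bmf.

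Among other relatives, 2 more pro-survival genes were measured under a single name and neither was called on its brightest probe set. Bcl2l2, which encodes BCL-W, changed by -0.06 (adjusted p = 0.583) and Bcl2l10 by 0.04 (adjusted p = 0.753). Of the 4 Bcl2l2 probe sets, 1 was called lower. The Bcl2a1 genes, which are near-identical copies, were not analysed here. Of 7 further BH3-only and BNIP genes, 4 were lower, 1 was higher and 2 did not pass, against 27.4% of all genes lower and 19.3% higher, with a median change of -0.23 against -0.04 for all genes. Bbc3, which encodes PUMA, changed by -0.23 ± 0.06 (adjusted p = 0.00943), and set against RAS-ON replicates 4 and 5 alone it did not pass (adjusted p = 0.199). Bnip3, a mitophagy receptor, was lower by 0.76, Bcl2l14 by 0.45 and Bnip1 by 0.39, while Becn1, the autophagy protein Beclin 1, was higher by 0.30. Hrk (-0.07) and Bik (-0.15) did not pass. Of 4 effector-like and atypical relatives, Bcl2l15 was 7.30 to 7.54 in RAS-OFF samples and 5.95 to 6.30 in RAS-ON samples, a change of 1.27 ± 0.06 (adjusted p = 6.30e-09). Bcl2l13, a mitochondrial mitophagy receptor, was higher by 0.49, Bcl2l12 lower by 0.50, and Bok, an effector relative, did not pass (0.07, adjusted p = 0.381).

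The steps before and after the mitochondrion moved in both directions. In the 5 lists of 9 genes that follow, 4 or 5 genes were called in 4 lists and 6 in the death receptor list, against 46.8% of all genes, so these counts say little about the lists. Of 9 death receptor genes, 4 were lower, 2 higher and 3 not called (median -0.15), with 1 higher without the 3 arrays set apart. Casp8, the caspase that cleaves BID, was 10.33 to 10.76 in RAS-OFF samples and 11.30 to 11.63 in RAS-ON samples, a change of -0.86 ± 0.06 (adjusted p = 8.88e-08). The adaptors Tradd and Fadd were lower by 0.51 and 0.45 (adjusted p = 5.10e-07 and 8.34e-05). All 3 had no overlap between the groups. Downstream, of 9 apoptosome and caspase genes 4 were lower and 0 higher (median -0.16), but 1 was lower without the 3 arrays set apart. Endog, a mitochondrial nuclease, was lower by 0.52 (adjusted p = 7.02e-05), Apaf1, the scaffold of the apoptosome, by 0.30 (adjusted p = 0.0249) and Casp2 by 0.17 (adjusted p = 0.0171). Apaf1 did not pass without RAS-ON replicate 1 (adjusted p = 0.0660), 2 (0.0782) or 5 (0.0706), and Casp2 did not pass without RAS-ON replicate 4 (0.0528). Against RAS-ON replicates 4 and 5 alone Apaf1 changed by -0.14 (adjusted p = 0.457). Against RAS-ON replicates 1 to 3 alone Casp2 changed by -0.10 (adjusted p = 0.158).

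Of 9 inhibitors of apoptosis and their antagonists, 3 were higher and 1 lower (median 0.04). Diablo, whose product SMAC blocks these inhibitors, was higher by 0.49 ± 0.05 (adjusted p = 5.74e-06), with all RAS-OFF arrays above all RAS-ON arrays. Birc5, survivin, which also serves cell division, was higher by 0.39 (adjusted p = 2.51e-05) and rose further by 0.13 per 12 h (adjusted p = 0.00172). Without the 3 arrays set apart that slope was 0.12 and was not called (adjusted p = 0.0987). Naip2 was lower by 0.49 (adjusted p = 1.30e-04). Of 9 genes that act on turnover of MCL1 and BIM, 3 were higher and 2 lower (median 0.03). Fbxo4 was lower by 0.59, Usp9x, a deubiquitinase of MCL1, was higher by 0.39 on its brightest of 7 probe sets (3 higher, 1 lower), and Btrc was higher by 0.45 (adjusted p = 0.0163), though not without RAS-ON replicate 4 (0.0502) or 5 (0.0508). Of 9 outer membrane and cristae genes, 2 were higher and 3 lower (median 0.01). Vdac2, a channel that holds BAK at the membrane, was lower by 0.40 (adjusted p = 7.24e-05) and Bcap31 by 0.30, while Itpr2 was higher by 0.33 (adjusted p = 0.00569).

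**Figure D4:**
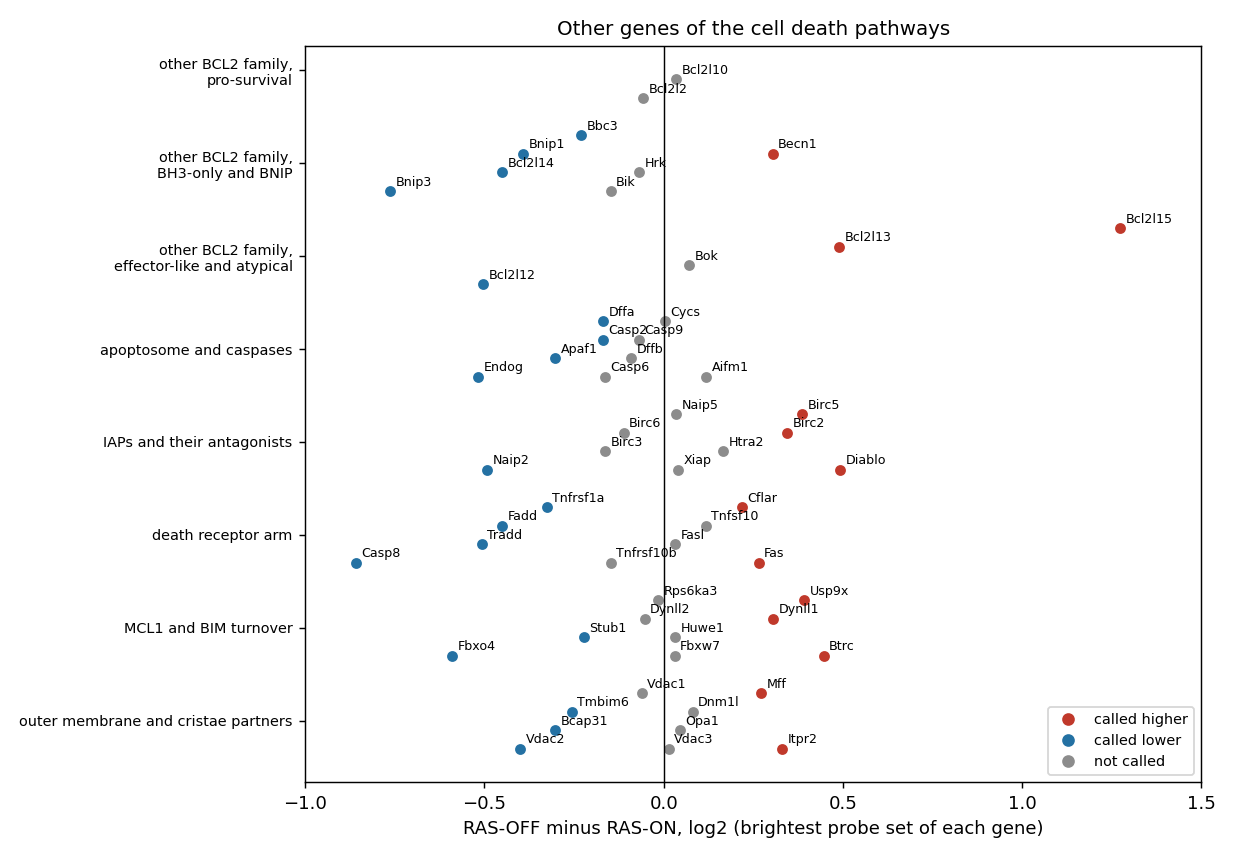
Change in log2 intensity, RAS-OFF minus RAS-ON (x axis), of the brightest probe set of each measured gene in the 8 lists of relatives and pathway partners (grouped by list on the y axis, with points set apart vertically only to keep the names legible). Each point is a gene, coloured by whether limma's adjusted p was below 0.05. Bcl2l15 is the point farthest to the right and Casp8 the one farthest to the left.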

How the data were processed

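RNA from leukemic mouse spleens was read on Affymetrix mouse genome arrays. The deposited file gives 1 linear intensity for each probe set and array, which the authors made with RMA (named in the submitters' processing notes, without settings). RMA aligns the distributions of arrays, so a shift of most genes would not show. From these intensities log2 was taken, with no filter. Probe sets were named through the supplied platform annotation, and RefSeq windows of assembly GRCm38.p6 gave promoter sequence. A gene's single value is that of its brightest probe set, by mean over the 15 arrays. Of 45101 probe sets, 64 controls were left out.

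Testing used limma 3.58.1 (R 4.3.3), two-sided, with 1 mean per group and Benjamini-Hochberg adjustment over 45037. RAS-ON was subtracted from the average of the RAS-OFF groups and from each time, and a slope per 12 h was fitted to the RAS-OFF means. Errors of changes are standard errors, and how many arrays there are sets the precision. The test was checked on simulated data. Alternatives were 1 value per gene, a filter on the dimmest 40%, median centring, eBayes with trend, weights for arrays, a block for the replicate number, and leaving out arrays. The members and gene lists were chosen with earlier results of these data known. All measured relatives were named, and of each further list up to 3 called genes with the largest change.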

Additional observations from a re-analysis of the deposited data

Results flagged for a closer look

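In all, 5 of the 31 probe sets (16.1%) had a called slope over RAS-OFF time, against 10.3% of all probe sets. A called slope means that the change from RAS-ON differed between doxycycline times. The slopes per 12 h were 0.1209 for Bcl2l11 on 1456005_a_at, 0.1066 for Bcl2l11 on 1435448_at, -0.1607 for Bmf on 1454880_s_at, -0.1178 for Bid on 1417045_at and -0.1543 for Mcl1 on 1416881_at. Without the first replicates of 48, 84 and 96 h none of the 5 was called. The slopes were then 0.13 and 0.13 for the 2 Bcl2l11 probe sets and -0.19 for Bmf, about as large, and -0.06 for Bid and -0.10 for Mcl1, smaller.

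In 2 dim probe sets 1 RAS-ON array lay far from the other 4. Bcl2l1 on 1426191_a_at was 6.40 in RAS-ON replicate 1 and 6.21 to 6.27 in the others, a gap of 0.723 of the range. Bmf on 1458325_x_at was 6.27 in RAS-ON replicate 3 and 6.09 to 6.13 in the others, a gap of 0.78 of the range. About 5% of groups show such a gap by chance, and 5.19% of all probe sets did.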

How the results depend on the processing

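Bcl2, Bid, Bad, Pmaip1, Bak1 and Bcl2l11 kept their direction and their call between RAS-OFF and RAS-ON in 26 of 26 alternatives, with a highest adjusted p of 0.00983 (Bad), and Bcl2l1 in 25 of 26. Over the 31 probe sets, 721 of 756 values under alternatives stayed on their side of the threshold, 20 lost the call, 14 gained it and 1 was called with the opposite sign. Some changes that were not called turned sign without being called, such as Bcl2 on 1443837_x_at. Averaging the probe sets of a gene turned the sign of Mcl1 (0.28, adjusted p = 0.00614), of Bcl2l1 at 96 h (-0.00036, adjusted p = 0.998), of Cflar (-0.16), of Spry2 (-0.35) and of the slope of Dnm1l (-0.012).

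Over all probe sets, 18711 were called for RAS-OFF against RAS-ON, then 8383, 7962, 10912, 13186 and 14517 for the 5 times in order, and 4636 for the slope. With 18193 genes in place of probe sets, fewer features were tested and the counts were 8875, 4987, 4686, 5779, 6700, 6847 and 2501 for the brightest probe set, and 8801, 4979, 4533, 5757, 6586, 6633 and 2443 for the mean of probe sets. Without the 3 arrays set apart the counts were 3983 (48 h), 7842 (84 h), 7323 (96 h) and 241 for the slope, and then 0 family genes had a slope called up and 0 down. The slope count was 6967 with RAS-ON replicates 4 and 5 only and 7077 within the 10 RAS-OFF arrays, and the cause was not tested.

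Leaving out 1 array at a time gave 16215 to 19107 calls for RAS-OFF against RAS-ON, then 4306 to 10400, 3336 to 9615, 5549 to 12361, 7393 to 14452 and 8410 to 15615 for the 5 times in order, and 1472 to 5470 for the slope. It gave 2 to 3 family genes higher and 5 to 5 lower, and for the slope 0 to 1 up and 0 to 2 down. Without 1 array of a time, the lone array is assumed to vary like the other groups.

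As a check on pairing, the log2 difference of replicate 1 minus replicate 2 was correlated between groups. The correlation was -0.325 to 0.248, over 0.1 in 1 of 15 pairs of groups. Each group gave a single difference and only replicates 1 and 2 entered, so the check cannot settle whether the numbers pair the samples. With the replicate number as a block, 16379 probe sets were called, with 3 family genes higher, Bmf (0.20, adjusted p = 0.0452) being added, and 5 lower. The calls of Nras, Bcap31, Itpr2, Casp2, Btrc and the Bcl2l11 probe set 1435449_at were lost.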
